A study of Rattus norvegicus with 48 samples.

Results

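RNA bound to tagged ribosomes was compared between D1 and A2a medium spiny neurons of the nucleus accumbens in rats on day 40 of withdrawal from cocaine. The comparison takes the 8 libraries titled D1 cocaine day 40 and the 8 titled A2a cocaine day 40, which are 16 of the 48 libraries of the series, and it covers all 15580 genes that passed a filter on low counts, of 32883 in the deposited table. D1 libraries came from D1:Cre rats and A2a libraries from A2a:Cre rats, all of them adult, of either sex and trained to take cocaine by themselves over 10 sessions. Ribosomes were pulled down from tissue punches with antibodies to green fluorescent protein, a method called TRAP, and the labels state that control pull-downs from wild-type tissue or without antibody gave no RNA that could be measured by dye and traces by PCR. How the tag was brought into the neurons is not given in the sources used here. Libraries of day 1 of withdrawal, 8 for each neuron type after cocaine and 8 after saline, come from other animals and serve to show where day 40 differs. No saline animals of day 40 were analysed here, so the values describe neuron types after cocaine and not an effect of cocaine.

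Medium spiny neurons are the inhibitory projection neurons of the striatum. Those of the direct pathway carry the dopamine D1 receptor, which raises cyclic AMP, and make dynorphin, while those of the indirect pathway carry the D2 receptor, which lowers cyclic AMP, and the adenosine A2a receptor, and make enkephalin. In the accumbens both kinds receive dopamine and glutamate input, and the study, by its title, concerns incubation of craving, the growth of cue-induced drug seeking over weeks of withdrawal.

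The middle number of the sample description, which the labels do not explain and which is read here as an animal set, was 85 in all D1 and 88 in all A2a libraries of day 40, so neuron type and animal set cannot be told apart in any day 40 difference. Library totals ran from 24.5 to 44.5 M counts in D1 (median 37.2 M) and from 35.9 to 55.1 M in A2a libraries (median 39.1 M). On the first principal component of the 16 libraries, with 23.6% of the variance, all D1 libraries lay between -54.2 and -21.8 and all A2a libraries between 24.6 and 41.7. Reads of the Y-linked genes Kdm5d and Eif2s3y were present in replicates 1 to 4 and at 0 in replicates 5 to 8 of both groups. D1 replicate 7 stood apart among D1 libraries: of 193 genes that the naming rule picked, it was the highest of the 8 in 53 and the lowest in 60. Its summed level of 14 genes shared by all medium spiny neurons was 6792 CPM, counts scaled to a common library total after TMM correction, where the other D1 libraries read 10589 to 14726 CPM.

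The genes that define the neuron types stood as the labels say. Drd1, the dopamine D1 receptor gene, read 96.9, 153 and 258 CPM (lowest, median and highest of 8) in D1 and 36.5, 46.0 and 52.9 CPM in A2a libraries. For Pdyn, the precursor of dynorphin, the values were 743, 1222 and 1517 CPM in D1 and 133, 179 and 217 CPM in A2a libraries. Isl1, a LIM homeodomain transcription factor of direct pathway neurons, read 30.9, 38.0 and 42.5 against 5.74, 7.62 and 10.1 CPM. In each of these 3 genes every D1 library lay above every A2a library, which held for 1.73% of all genes tested.

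Drd2, the dopamine D2 receptor gene, read 54.6, 88.1 and 121 CPM in D1 and 567, 669.7 and 741 CPM in A2a libraries. Penk, the enkephalin precursor, read 691, 955 and 1239 CPM in D1 and 6390, 8389 and 11753 CPM in A2a libraries, and Gpr6, an orphan receptor that raises cyclic AMP, 30.7, 51.8 and 66.7 against 295, 337 and 426 CPM. Here every D1 library lay below every A2a library, which held for 1.61% of all genes tested. Each of the 6 genes was still read in every library of the other type. In bulk pull-downs like these, fewer cells of a type and less RNA per cell cannot be told apart.

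**Figure D1:**
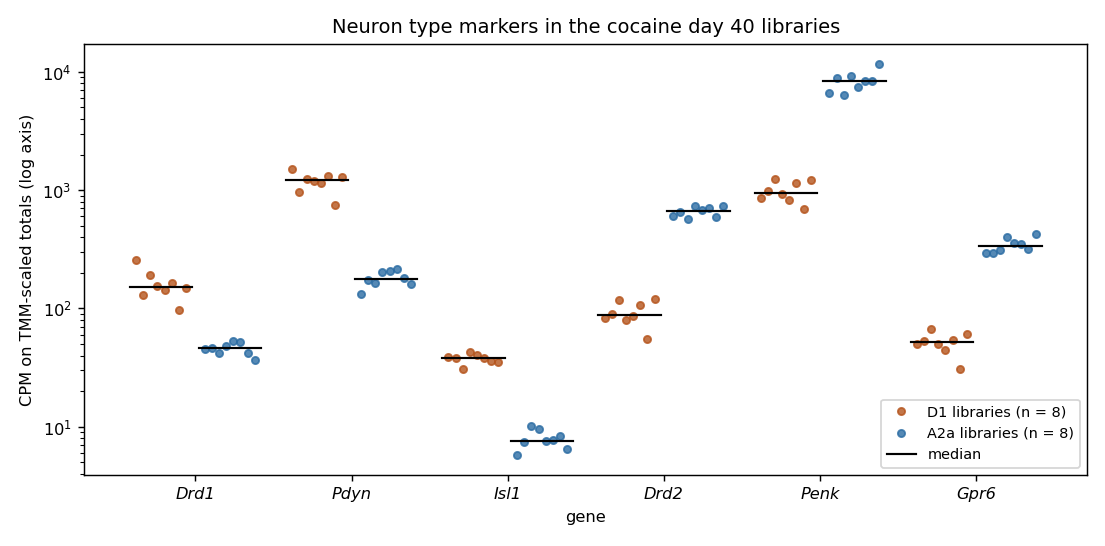
CPM (log axis) of 3 D1 marker genes and 3 A2a marker genes in the 16 cocaine day 40 libraries, with 1 point per library and a bar at the median of each group. The groups do not overlap in any of the 6 genes, and Penk has the widest gap, from 1239 CPM in the highest D1 library to 6390 CPM in the lowest A2a library.

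Over the wider list of D1 markers, 8 of 9 tested genes were higher in D1 libraries, where the share of all genes tested that passed in that direction was 10.1%. Log2 differences, D1 minus A2a, were 2.71 ± 0.13 (SE) for Pdyn, 2.34 ± 0.17 for Slc35d3, a sugar-nucleotide transporter family gene, 2.25 ± 0.11 for Isl1 and 2.12 ± 0.10 for Chrm4, the muscarinic M4 receptor gene (edgeR adjusted p between 7.03e-22 and 2.49e-14). Ebf1, a transcription factor of developing direct pathway neurons, followed with 1.91 ± 0.18, then Drd1 with 1.82 ± 0.14, the mitochondrial serine carrier gene Sfxn1 with 1.62 ± 0.08 and the zinc finger gene Zfp521 with 0.98 ± 0.11 (edgeR adjusted p between 7.36e-22 and 3.48e-09). In all 8 of these genes the groups did not overlap. Eya1, a transcriptional coactivator read at 0.0541 to 0.71 CPM in D1 libraries, differed by -0.07 ± 0.45 and did not pass (edgeR adjusted p = 0.943).

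All 10 markers of D2/A2a neurons were lower in D1 libraries, where the share of all genes tested that passed in that direction was 10.3%. Penk differed by -3.09 ± 0.14, Drd2 by -2.83 ± 0.13, Gpr6 by -2.74 ± 0.12, Gpr52, another orphan receptor that raises cyclic AMP, by -2.45 ± 0.11, and Adora2a, the adenosine A2a receptor gene, by -2.06 ± 0.15 (edgeR adjusted p between 8.49e-23 and 4e-15). Upb1, an enzyme of pyrimidine breakdown, differed by -2.28 ± 0.23 and Grik3, a kainate receptor subunit gene, by -1.78 ± 0.44. The least different were the delta opioid receptor gene Oprd1 (-1.57), the transcription factor gene Sp9 (-1.46) and the receptor phosphatase gene Ptprm (-0.66). Adora2a read 85.5 to 268 CPM in D1 libraries, where replicate 7 gave the lowest value, and 759.9 to 1050 CPM in A2a libraries. In Sp9 and Oprd1 the groups overlapped, at 3.01 to 9.12 against 8.21 to 26.9 CPM and 0.216 to 1.35 against 0.747 to 2.36 CPM.

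In all, 3171 genes passed at an adjusted p of 0.05 (edgeR quasi-likelihood test), 20.4% of the 15580 tested, with 1574 higher and 1597 lower in D1 libraries. A log2 difference of at least 1 was reached by 363 of those higher (2.33% of all tested) and 385 of those lower (2.47%). The median size of the called differences was 0.42 on the log2 scale.

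Day 1 libraries, none of them shared with day 40, show how much of this neuron type difference is found in other animals. Rat line, D1:Cre or A2a:Cre, goes with neuron type, so agreement with day 1 does not part line from neuron type. The same test called 1727 genes after cocaine (11.1% of those tested) and 1266 after saline (8.13%) on day 1. In the cocaine day 1 comparison, A2a replicate 7 held 5.29 M counts, where the median of its group was 36.7 M. How far that library affects the day 1 count was not tested. Of the 3171 genes of day 40, 1121 (35.4%) were also called in the same direction in cocaine animals of day 1, 907 (28.6%) in saline animals and 715 (22.5%) in both. The other way round, 715 of the 863 genes called in the same direction in both day 1 comparisons (82.9%) passed again on day 40, and 852 (98.7%) had the same sign. Across those 863 genes the log2 differences of day 40 and cocaine day 1 had a Pearson r of 0.926, and across all 15580 genes r was 0.412; genes are not independent replicates, and these values are given as descriptions. In 1855 genes (58.5%) the call of day 40 was found in neither day 1 comparison, with a median size of 0.387 on the log2 scale where the other 1316 had 0.451. A call missing on day 1 does not show a change, which is tested below as an interaction. Of the 3171 genes, 2632 (83.0%) had the same sign in both day 1 comparisons. Over all genes tested, 53.6% had the same sign in all 3 comparisons.

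**Figure D2:**
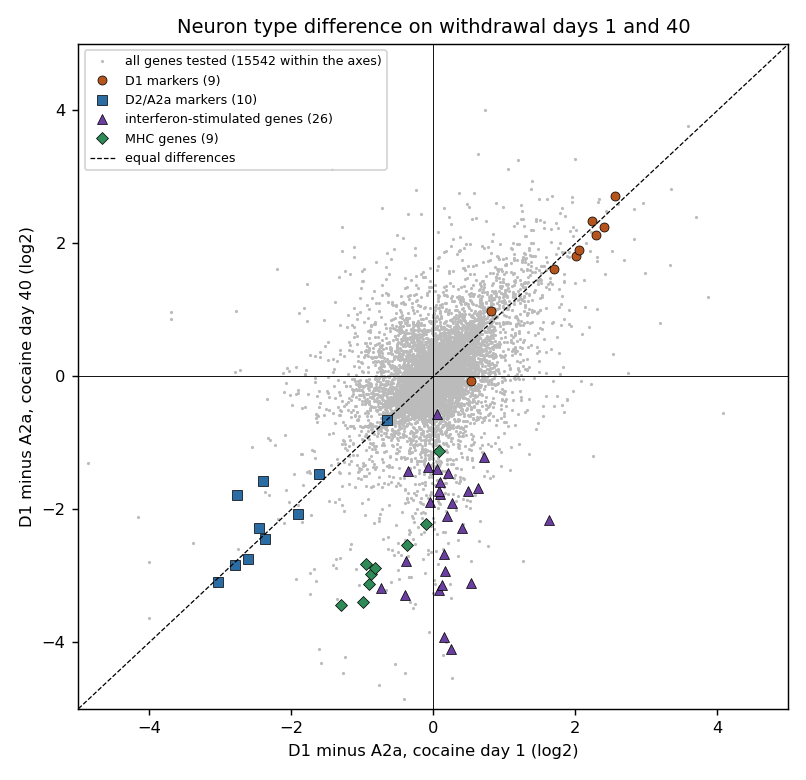
Log2 difference, D1 minus A2a, on cocaine day 40 (vertical) against cocaine day 1 (horizontal) for 15542 genes, with 38 more genes outside the axes, and 4 gene lists in colour. Markers of both neuron types lie near the line of equal differences, while interferon-stimulated genes (day 40 median -1.999, day 1 median 0.13) and MHC genes (-2.88 and -0.88) have medians below it.

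Outside the marker lists, large differences toward D1 libraries were found in transporter, matrix and signalling genes. Slc6a7, a brain proline transporter gene, read 9.08, 21.2 and 57.9 CPM in D1 and 1.59, 3.87 and 6.17 CPM in A2a libraries, a log2 difference of 2.67 ± 0.35 (edgeR adjusted p = 1.82e-07). Arhgap36, which encodes an inhibitor of protein kinase A, read 30.9, 63.1 and 89.3 against 5.01, 9.00 and 17.2 CPM (2.61 ± 0.26, edgeR adjusted p = 1.22e-10). Others were Hapln4, a link protein of the perineuronal matrix (2.34 ± 0.24), Gpx3, an extracellular glutathione peroxidase (2.23 ± 0.27), Lingo2, a leucine-rich repeat membrane protein (2.18 ± 0.11), and Igfbp4, which binds insulin-like growth factors (1.93 ± 0.16), with edgeR adjusted p between 7.03e-22 and 3.85e-08. Groups did not overlap in any of these 6 genes. Slc6a7, Hapln4 and Gpx3 were highest in D1 replicate 7, at 57.9, 64.7 and 133 CPM, while Lingo2 varied less, from 16.7 to 26.7 CPM. Ube2ql1, a ubiquitin-conjugating enzyme gene with one of the smallest p values, differed by 1.67 ± 0.10 (edgeR adjusted p = 1.5e-19).

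Toward A2a libraries, P2ry1 and Gucy1a1 had p values as small as those of the markers. P2ry1, a receptor for extracellular ADP, read 13.4, 15.9 and 19.8 CPM in D1 and 84.5, 95.9 and 116 CPM in A2a libraries (-2.59 ± 0.12, edgeR adjusted p = 2.03e-22). Gucy1a1, a subunit of the guanylyl cyclase that nitric oxide activates, read 66.6, 108 and 120.4 against 276, 334 and 359 CPM (-1.64 ± 0.08, edgeR adjusted p = 6.73e-22), and its partner subunit Gucy1b1 differed by -0.84 ± 0.08 (edgeR adjusted p = 1.51e-11). Groups did not overlap in these 3 genes. On day 1 the differences were -2.75 after cocaine and -2.46 after saline for P2ry1, and -1.84 and -1.74 for Gucy1a1.

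Transcription factors that set neuron identity differed in both directions. Of 30 tested, 15 were higher (50%) and 8 lower (26.7%) in D1 libraries, where all genes tested gave 10.1% and 10.3%. Isl1 and Ebf1 are also on the D1 marker list, so these shares partly repeat the marker result. Among the higher ones were, beside Isl1 and Ebf1, Foxp2 (1.55 ± 0.10), Tox, an HMG-box factor (1.43 ± 0.18), and Lhx6, which marks interneurons of the medial ganglionic eminence (1.89 ± 0.32), with edgeR adjusted p between 8.78e-17 and 1.56e-05. Foxp2 read 66.4 to 115 CPM in D1 and 26.0 to 42.5 CPM in A2a libraries. Its relative Foxp1 stood the other way, with 37.4 to 71.5 CPM in D1 and 88.5 to 131 CPM in A2a libraries (-0.79 ± 0.11, edgeR adjusted p = 1.01e-06), and the groups overlapped in neither gene. Rarb, a retinoic acid receptor gene of striatal neurons, did not pass (-0.05 ± 0.10, edgeR adjusted p = 0.81).

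Genes shared by medium spiny neurons were lower in D1 libraries or did not pass. Of 14 tested, 9 were lower (64.3%, where all genes tested gave 10.3%) and none higher. The list median was -0.33, where that of all genes tested was -0.0086. Rasd2, a striatal small GTPase, read 353, 835 and 1071 CPM in D1 and 1086, 1685 and 1931 CPM in A2a libraries (-0.9996 ± 0.15, edgeR adjusted p = 2.74e-06). Gng7, the G-protein gamma subunit that couples striatal receptors to adenylyl cyclase, differed by -0.59 ± 0.08 (edgeR adjusted p = 3.26e-07). D1 replicate 7 was the lowest D1 library in Rasd2 and Gng7, and 8 of the 14 genes were lower when it was left out. Ppp1r1b, which encodes DARPP-32, differed by -0.13 ± 0.11 and did not pass (edgeR adjusted p = 0.431); it is outside the naming rule and was picked after its value was seen.

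Opioid peptides split by neuron type. Of 8 opioid genes tested 5 were higher (62.5%) and 2 lower (25%) in D1 libraries, where all genes tested gave 10.1% and 10.3%. Pdyn, Penk and Oprd1 are counted among the markers too. Besides Pdyn and Penk, Pnoc, the nociceptin precursor, was higher in D1 libraries, at 8.6, 11.3 and 34.8 against 1.46, 2.25 and 3.3 CPM (2.60 ± 0.27, edgeR adjusted p = 3.52e-10), and the groups did not overlap. Oprd1, whose product binds enkephalin, differed by -1.57 ± 0.33. The gene of the mu opioid receptor, Oprm1, was read at 0.172 to 0.506 CPM in D1 libraries and did not pass (0.70 ± 0.54, edgeR adjusted p = 0.393). Pomc, the precursor of beta-endorphin, passed with 2.76 ± 0.56 (edgeR adjusted p = 0.000272), but this rested on D1 replicate 3 at 93.5 CPM. The other D1 libraries read 1.87 to 4.40 CPM, and without replicate 3 the difference was 0.57 (edgeR adjusted p = 0.114).

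Of 15 other peptide genes tested, 7 were higher (46.7%) and 2 lower (13.3%) in D1 libraries, where all genes tested gave 10.1% and 10.3%. The lower count was 1 without D1 replicate 7 or without A2a replicate 8. Tac3, the neurokinin B precursor, read 210.3, 265 and 303 CPM in D1 and 54.7, 69.3 and 96.8 CPM in A2a libraries (1.87 ± 0.13, edgeR adjusted p = 1.78e-15). Sst, the somatostatin precursor, read 635, 992 and 1210 against 199, 226 and 361 CPM (1.89 ± 0.15, edgeR adjusted p = 8.83e-14). Both genes separated the groups. Chga, a secretory granule protein, was lower (-0.39 ± 0.10, edgeR adjusted p = 0.0026). Crh, the corticotropin-releasing hormone precursor, passed at 3.12 ± 0.70, with 43.3 CPM in D1 replicate 7 and at most 7.41 CPM in the other D1 libraries. Without that library its difference was 1.60 (edgeR adjusted p = 0.0414), and it did not pass by limma-voom (adjusted p = 0.0766).

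Receptors for peptides were higher in D1 libraries in 11 of 19 tested genes (57.9%) and lower in 1 (5.26%), where all genes tested gave 10.1% and 10.3%. Sstr4, a somatostatin receptor gene, read 3.48, 4.09 and 6.65 against 1.01, 1.65 and 2.21 CPM (1.37 ± 0.18, edgeR adjusted p = 1.24e-07). Crhr2, a receptor for urocortins, differed by 1.78 ± 0.38, the neurotensin receptor gene Ntsr1 by 2.23 ± 0.44 and Sstr1 by 1.81 ± 0.41 (edgeR adjusted p between 0.000183 and 0.000946). These 3 were read at 14.6 CPM or less in any day 40 library, and Sstr1 and Ntsr1 were highest in D1 replicate 7. The gene lower in D1 libraries was Mc4r, the melanocortin 4 receptor, at 4.92, 8.43 and 15.0 against 12.1, 17.1 and 24.3 CPM (-0.92 ± 0.18, edgeR adjusted p = 0.000103). Calcr, the calcitonin receptor gene, which was on the list of patch and region genes, was also lower, at 10.9, 19.8 and 31.9 against 58.0, 86.5 and 131 CPM (-2.20 ± 0.22, edgeR adjusted p = 1.26e-10), without overlap.

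**Figure D3:**
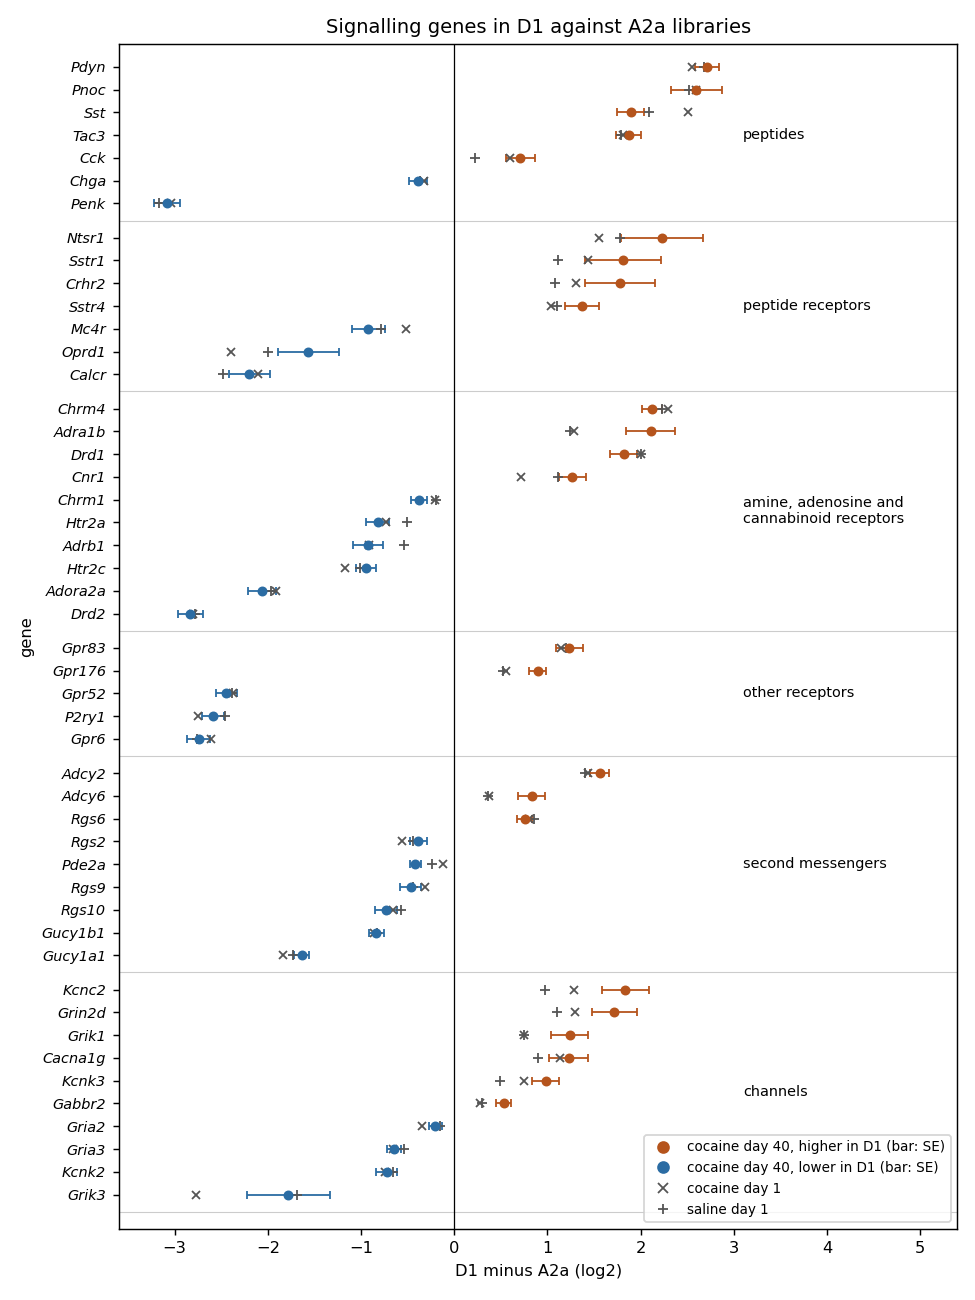
Log2 difference, D1 minus A2a, for 48 signalling genes, grouped by kind. Filled points give cocaine day 40 with bars of 1 SE from edgeR, crosses cocaine day 1 and plus signs saline day 1; on day 40 Pdyn (2.71) and Penk (-3.09) lie at the ends, and the 3 comparisons have the same sign in each of these genes.

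Among serotonin and adrenergic receptors 7 of 14 tested genes were lower (50%) and 1 was higher (7.14%) in D1 libraries. All genes tested gave 10.3% lower and 10.1% higher. Htr2c, a serotonin receptor that raises intracellular calcium, read 198, 227 and 358 CPM in D1 and 411, 470.0 and 506 CPM in A2a libraries (-0.95 ± 0.11, edgeR adjusted p = 2.66e-09), and Htr2a, its close relative, 13.8, 17.6 and 20.4 against 26.3, 30.5 and 36.4 CPM (-0.82 ± 0.13, edgeR adjusted p = 3.42e-06). In neither gene did the groups overlap. Adrb1, the beta-1 adrenergic receptor gene, differed by -0.93 ± 0.16 (edgeR adjusted p = 1.75e-05). The gene that stood the other way was Adra1b, an alpha-1 adrenergic receptor, at 3.15, 5.06 and 15.6 CPM in D1 and 0.569, 1.59 and 2.19 CPM in A2a libraries (2.11 ± 0.26, edgeR adjusted p = 2.47e-08). Of 10 acetylcholine receptor genes tested, 2 were higher (20%) and 1 was lower (10%), or 2 and 2 without D1 replicate 7. Chrm4 was on the marker list, Chrm1, the M1 receptor, was lower (-0.38 ± 0.09, edgeR adjusted p = 0.000976), and the nicotinic subunit gene Chrna4 was higher (1.21 ± 0.27, edgeR adjusted p = 0.000874). Chrna4 read 18.6 CPM in D1 replicate 7, and without that library it differed by 0.81.

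In the adenosine and cannabinoid system 2 of 13 tested genes were higher (15.4%) and 5 lower (38.5%), where all genes tested gave 10.1% and 10.3%. Cnr1, the CB1 cannabinoid receptor gene, read 22.6, 27.8 and 35.0 CPM in D1 and 6.92, 10.5 and 17.1 CPM in A2a libraries (1.27 ± 0.15, edgeR adjusted p = 3.42e-09). Adk encodes the kinase that clears adenosine, and Nt5e the surface enzyme that makes it. Adk read 42.3, 45.5 and 51.3 against 62.9, 72.4 and 77.5 CPM (-0.64 ± 0.06, edgeR adjusted p = 1.03e-11), and Nt5e differed by -1.0003 ± 0.14 (edgeR adjusted p = 7.87e-07). Groups were separate in Cnr1 and Adk and overlapped in Nt5e.

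Of 28 phosphodiesterases and cyclases, which make and break down cyclic nucleotides, 4 were higher (14.3%) and 5 lower (17.9%) in D1 libraries, shares near the 10.1% and 10.3% of all genes tested. Adcy2, an adenylyl cyclase, read 83.0, 91.2 and 134 against 26.2, 33.6 and 40.2 CPM (1.56 ± 0.10, edgeR adjusted p = 3e-17), and Adcy6 differed by 0.83 ± 0.14 (edgeR adjusted p = 2.55e-05). Pde2a, a phosphodiesterase that cyclic GMP stimulates, was lower at 604, 784 and 894 against 926, 1044 and 1129 CPM (-0.42 ± 0.06, edgeR adjusted p = 4.02e-07). Regulators of G-protein signalling, which speed up the switching off of G proteins, were lower in 9 of 17 tested genes (52.9%). They were higher in 2 (11.8%), or 1 without D1 replicate 7. Rgs10 differed by -0.73 ± 0.12, Rgs9, the striatal member, by -0.47 ± 0.11 and Rgs2 by -0.39 ± 0.09, while Rgs6 was higher by 0.76 ± 0.08 without overlap (edgeR adjusted p between 2.77e-10 and 0.00148). Gnao1, the G-protein alpha-o subunit gene, differed by -0.39 ± 0.07 and Ppp3ca, a catalytic subunit of calcineurin, by -0.54 ± 0.11 (edgeR adjusted p between 3.63e-05 and 0.000223). Orphan receptors were lower in 6 of 25 tested genes (24%) and higher in 2 (8%). The higher ones were Gpr83 (1.23 ± 0.15) and Gpr176 (0.89 ± 0.09), both without overlap (edgeR adjusted p between 2.69e-10 and 9.79e-09).

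Of 18 ionotropic glutamate receptor subunit genes, 4 were higher and 4 lower (22.2% each), where all genes tested gave 10.1% and 10.3%. Gria3, an AMPA receptor subunit gene, read 103, 135 and 166 CPM in D1 and 186, 209.9 and 243 CPM in A2a libraries (-0.65 ± 0.08, edgeR adjusted p = 5.57e-09). Grin2d, an NMDA receptor subunit gene, was higher, at 3.55, 5.01 and 16.2 against 1.3, 1.74 and 3.22 CPM (1.72 ± 0.24, edgeR adjusted p = 5.4e-07), and so was the kainate receptor gene Grik1 (1.24 ± 0.20, edgeR adjusted p = 7.07e-06). Groups did not overlap in Gria3 and Grin2d, although Grin2d was highest in D1 replicate 7, and without that library the counts for the list were 2 higher and 3 lower. Gria1, whose product forms calcium-permeable AMPA receptors without GluA2, did not pass (-0.24 ± 0.12, edgeR adjusted p = 0.155), nor did Grin2b (-0.27 ± 0.18, edgeR adjusted p = 0.344) and Grm5, the mGlu5 receptor gene (-0.59 ± 0.36, edgeR adjusted p = 0.274). In a fit on the 16 libraries alone Gria1 and Grm5 did pass (edgeR adjusted p = 0.0232 and 0.0129). Among AMPA receptor auxiliary subunits 4 of 12 were lower (33.3%) and none higher. The lower ones included Cnih2 (-0.32 ± 0.06) and Shisa7 (-0.32 ± 0.06), with edgeR adjusted p between 5.23e-05 and 7.15e-05.

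Of 15 GABA receptor genes 4 were higher (26.7%) and 2 lower (13.3%), where all genes tested gave 10.1% and 10.3%. Gabbr2, a subunit of the metabotropic GABA-B receptor, read 98.3, 109 and 160.3 against 75.6, 82.2 and 86.9 CPM (0.53 ± 0.08, edgeR adjusted p = 1.21e-06) without overlap, and the subunit gene Gabra5 differed by 0.39 ± 0.08 and Gabra4 by -0.33 ± 0.09 (edgeR adjusted p between 0.000437 and 0.00366). Among 38 potassium channel genes 8 were higher and 8 lower (21.1% each). Without D1 replicate 7 these counts were 7 and 4. Kcnc2 and Kcnc1, whose channels repolarise fast-firing neurons, were higher by 1.84 ± 0.25 and 0.93 ± 0.14, as was the leak channel gene Kcnk3 by 0.98 ± 0.14, while the leak channel gene Kcnk2 differed by -0.73 ± 0.11 (edgeR adjusted p between 3.27e-07 and 3.42e-06). Calcium, sodium and pacemaker channels gave 4 higher and 4 lower of 26 (15.4% each), near the shares over all genes. Cacna1g, a low-threshold calcium channel gene, read 12.4, 13.8 and 30.7 against 3.76, 6.69 and 10.6 CPM (1.23 ± 0.21, edgeR adjusted p = 1.74e-05), and the pacemaker channel gene Hcn3 was higher by 0.70 ± 0.13 (edgeR adjusted p = 9.23e-05). The calcium channel subunit gene Cacna2d3 differed by -0.35 ± 0.08 (edgeR adjusted p = 0.000611).

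Among 46 adhesion genes 5 were higher (10.9%) and 10 lower (21.7%) in D1 libraries, where all genes tested gave 10.1% and 10.3%. Without D1 replicate 7 the counts were 3 and 10. Cntnap4, a neurexin family protein, differed by 1.34 ± 0.16 and Cdh20, a cadherin, by 1.10 ± 0.14, both without overlap, while Nrxn2, a neurexin, differed by -0.63 ± 0.08, Cntn3, a contactin, by -0.56 ± 0.11 and Lrrtm3, a postsynaptic partner of neurexins, by -0.36 ± 0.08 (edgeR adjusted p between 5.39e-09 and 0.000969). Axon guidance genes, with 14.0% of 43 higher and 18.6% lower, were not far above those shares. The 6 higher genes included Sema3c (1.38 ± 0.19) and Slit1 (0.70 ± 0.12), and the 8 lower genes Plxnd1, a semaphorin receptor (-0.57 ± 0.10), and Efnb1, an ephrin (-0.59 ± 0.11), with edgeR adjusted p between 4.9e-07 and 0.00012. Without D1 replicate 7 and A2a replicate 8 the counts were 5 and 5. Neurotrophic factors and their receptors were higher in 8 of 22 (36.4%) and lower in none. Gfra1, the receptor for GDNF, read 6.29, 8.74 and 32.5 against 2.66, 3.62 and 5.29 CPM (1.75 ± 0.28), Fgf1, a fibroblast growth factor, 5.54, 7.2 and 19.0 against 2.13, 2.72 and 4.32 CPM (1.55 ± 0.20), and Cntfr differed by 0.31 ± 0.06 (edgeR adjusted p between 8.84e-08 and 0.000165). Gfra1 and Fgf1 were highest in D1 replicate 7. Gfra2, the receptor for neurturin, differed by 1.56 ± 0.30 with that library and by 0.98 without it. Bdnf was read at 0.929 CPM or less in all 16 libraries and did not pass (1.22 ± 0.81, edgeR adjusted p = 0.321).

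Markers of interneurons, which are no medium spiny neurons, moved with the neuron type as well. Of 11 tested 7 were higher (63.6%) and 2 lower (18.2%) in D1 libraries, where all genes tested gave 10.1% and 10.3%. The summed level of the list was 821 to 1325 CPM in D1 and 264 to 449 CPM in A2a libraries, most of it from Sst. Beside Sst and Lhx6, the receptor kinase gene Kit read 24.7, 27.3 and 34.5 against 7.06, 7.76 and 9.29 CPM (1.81 ± 0.13, edgeR adjusted p = 7.59e-16), and Calb2, the calretinin gene, 15.4, 24.5 and 84.2 against 5.77, 10.1 and 18.5 CPM (1.59 ± 0.30, edgeR adjusted p = 0.000111). Calb2 overlapped between the groups and was highest in D1 replicate 7. Htr3a, a serotonin-gated channel of interneurons, was lower (-0.69 ± 0.14, edgeR adjusted p = 0.000272). Genes of fast-firing neurons were higher in 5 of 10 tested (50%), among them Hapln4, Kcnc1 and the neurofilament gene Nefh (0.66 ± 0.11, edgeR adjusted p = 1.18e-05). The synaptotagmin gene Syt2 was the 1 that was lower (10%), by -0.72 ± 0.17 (edgeR adjusted p = 0.00185). On day 1 the interneuron list had a median of 1.26 after cocaine and 0.48 after saline, where day 40 had 1.59. Slc17a6, the vesicular glutamate transporter gene of subcortical neurons, which accumbens projection neurons lack, read 0.127, 2.23 and 15.4 CPM in D1 and 0.0266, 0.337 and 1.59 CPM in A2a libraries (2.82 ± 0.68, edgeR adjusted p = 0.00197), with its highest value in D1 replicate 7. The share of interneuron and other RNA in the differences of channels, peptides and receptors was not tested.

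None of 10 astrocyte and none of 12 oligodendrocyte markers passed by edgeR, with medians of 0.23 and 0.0025. At an unadjusted p under 0.05 there were 2 astrocyte and 0 oligodendrocyte markers, and DESeq2 and limma-voom each called 1 astrocyte and 0 oligodendrocyte markers. Summed levels were 1721 to 2627 CPM in D1 and 1654 to 2553 CPM in A2a libraries for astrocytes, and 3333 to 5824 and 3564 to 5847 CPM for oligodendrocytes.

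Immune genes gave large differences toward A2a libraries. Interferon-stimulated genes, which cells switch on when type I interferon reaches them and which block viruses, were lower in D1 libraries in 23 of 26 tested (88.5%). Their median log2 difference was -1.999, and the share of all genes tested that were lower was 10.3%. All 9 tested genes of MHC antigen presentation were lower (median -2.88), as were 7 of 11 microglia markers (63.6%, median -0.76) and 3 of 5 blood and B cell markers (60%). Mx1, an antiviral GTPase, read 0.116, 0.427 and 2.00 CPM in D1 and 2.78, 8.71 and 28.7 CPM in A2a libraries (-4.10 ± 0.77, edgeR adjusted p = 0.000109), although limma-voom gave an adjusted p of 0.0524. C3, the central complement component, read 3.11, 9.41 and 16.6 against 40.9, 85.7 and 159 CPM (-3.29 ± 0.51, edgeR adjusted p = 5.85e-06). Cd74, the chaperone of MHC class II, read 3.97, 19.1 and 39.7 against 50.6, 152 and 364 CPM (-3.13 ± 0.67, edgeR adjusted p = 0.000559), and RT1-Ba, a class II chain, differed by -3.40 ± 0.68 (edgeR adjusted p = 0.000291). In these 4 genes every D1 library lay below every A2a library. Counts of MHC genes are uncertain, since near-identical copies share reads.

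Jchain, the joining chain of antibodies made by plasma cells, read 1.01, 1.16 and 1.6 CPM in D1 and 9.92, 18.9 and 41.2 CPM in A2a libraries (-4.22 ± 0.73, edgeR adjusted p = 2.96e-05). The B cell receptor genes Cd79a and Cd79b were read at 1.08 CPM or less in all 16 libraries. An entry without a name, ENSRNOG00000048402, read 0 to 0.174 CPM in D1 libraries and 243 to 1571 CPM in A2a libraries of day 40. On day 1 after cocaine it read 0 to 822 CPM in D1 and 1.00 to 2926 CPM in A2a libraries. After saline the entry read 149 to 1918 CPM in D1 and 5.35 to 539 CPM in A2a libraries. Neither day 1 difference passed (-1.49 and 0.61, edgeR adjusted p = 0.312 and 0.787). Among microglia markers, the complement gene C1qa read 45.9, 56.7 and 78.1 against 81.9, 164 and 208 CPM (-1.35 ± 0.30, edgeR adjusted p = 0.00103), and Itgam, the CD11b integrin chain, differed by -1.42 ± 0.30 (edgeR adjusted p = 0.00047). The D1 libraries of day 40 were the low side when set beside day 1. Summed over the list, interferon-stimulated genes read 103 to 199.5 CPM in D1 and 243 to 866 CPM in A2a libraries of day 40, while day 1 libraries read 215 to 1181 CPM except for 3. Those were D1 cocaine day 1 replicates 1 and 2 and A2a cocaine day 1 replicate 1, at 112, 157 and 114 CPM, all from animal set 89. The other libraries of that set were not low, at 250 to 1181 CPM. Summed microglia markers read 179 to 307 CPM in D1 and 264 to 598 CPM in A2a libraries of day 40, and the part of microglia, blood cells and animal set in the immune differences was not tested. With a covariate for the mean level of the interferon-stimulated genes, which holds many of these genes itself, C3 and Zc3hav1 still passed (edgeR adjusted p = 0.024 and 0.0391). Under it the other immune genes named here did not pass, with edgeR adjusted p from 0.0808 in Samd9 to 0.904 in C1qa. Since the summed level of the interferon-stimulated genes did not overlap between the day 40 groups, this covariate stands close to the comparison itself. A kept or lost call under it therefore does not sort the genes by cause.

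**Figure D4:**
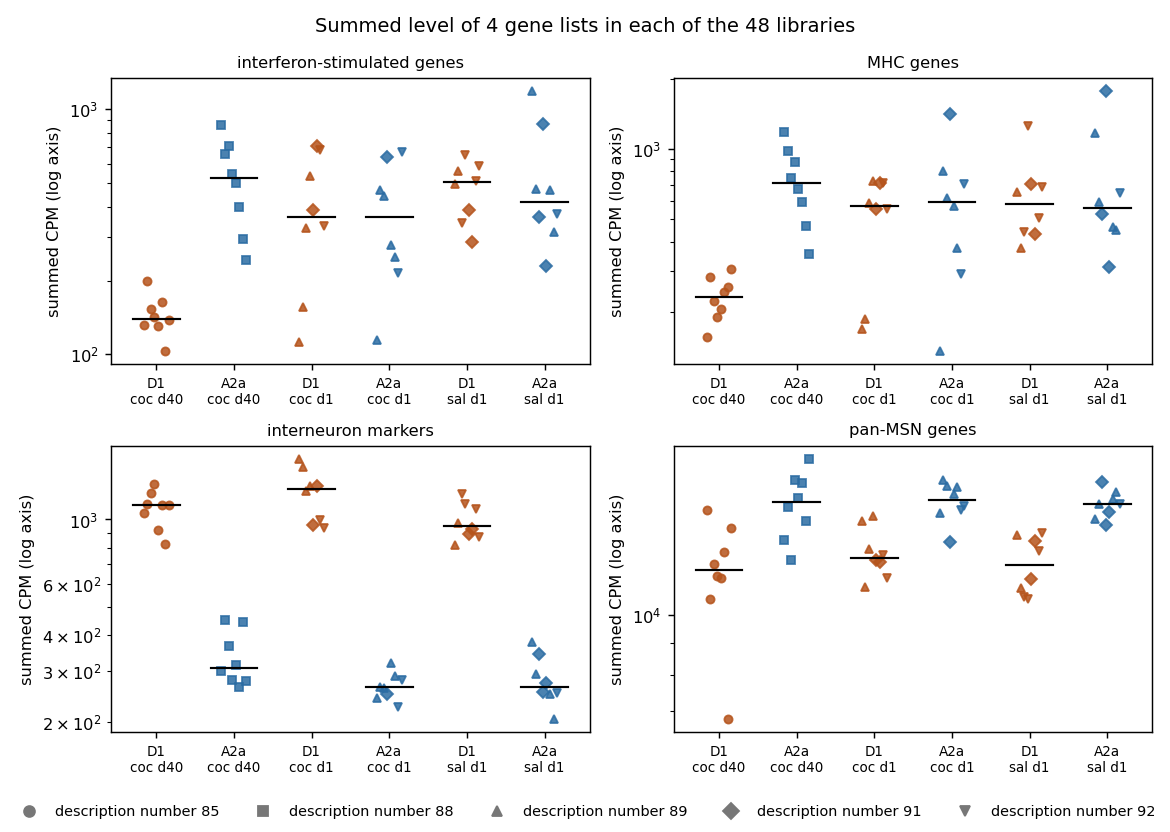
Summed CPM (log axis) of 4 gene lists in each of the 48 libraries, by group, with bars at the medians, D1 in brown, A2a in blue and symbols for the middle number of the description. The 8 D1 libraries of day 40 (number 85) lie between 103 and 199.5 CPM for interferon-stimulated genes, with 3 cocaine day 1 libraries of number 89 beside them, while interneuron markers are higher in D1 than in A2a libraries in all 3 conditions.

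The 250 bases before the starts of interferon-stimulated genes were searched for the core of the interferon-stimulated response element, GAAANNGAAA on either strand. Interferon regulatory factors bind this element. Promoters came from RefSeq on the build GRCr8, and 19 of the 26 genes tested had one. The core stood in 12 of these 19, counted by gene, where 3.41% of all 33469 rat promoters of that length, counted by promoter, hold it. The list was made of genes that interferon switches on, so a high share says nothing about these libraries. Of 8 MHC genes with a promoter, 2 held it, B2m and Tap1. Of the promoters of the D1 and D2/A2a markers, 8 were matched for each list, and 0 of each held the core. Windows around the match are given for 3 interferon-stimulated genes and 1 antigen presentation gene of the naming rule, on the strand of the gene with the core, or its reverse complement, in capitals:
Samd9, chr4:32138965-32139014, minus strand: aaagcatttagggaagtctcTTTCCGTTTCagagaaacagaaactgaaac
Oas1a, chr12:41330405-41330454, plus strand: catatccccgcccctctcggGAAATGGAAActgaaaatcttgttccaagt
Rsad2, chr6:48788238-48788287, minus strand: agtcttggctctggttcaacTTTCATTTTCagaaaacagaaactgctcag
Tap1, chr20:4668635-4668684, minus strand: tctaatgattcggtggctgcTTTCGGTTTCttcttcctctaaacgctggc
The matches shown lie 36 to 27, 41 to 32, 147 to 138 and 121 to 112 bases before the start, and Samd9 held 3 matches and Oas1a 2. Samd9, an interferon-induced host restriction factor, read 13.8, 17.6 and 22.5 CPM in D1 and 31.0, 47.8 and 73.5 CPM in A2a libraries (-1.43 ± 0.23, edgeR adjusted p = 1.26e-05). For Oas1a, a sensor of double-stranded RNA, the values were 0.101, 0.553 and 1.3 against 0.947, 4.72 and 8.63 CPM (-2.93 ± 0.54, edgeR adjusted p = 8e-05). Rsad2, the antiviral enzyme viperin, differed by -3.11 ± 0.61, and Tap1, a subunit of the peptide transporter of antigen presentation, by -2.22 ± 0.47 (edgeR adjusted p between 0.000197 and 0.000508). Oas1a overlapped between the groups and the other 3 did not. The 3 interferon-stimulated genes and Tap1 had day 1 differences between -0.36 and 0.52 after cocaine. A match is a description of letters and shows no binding.

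A further motif, the cyclic AMP response element TGACGTCA, stood in 1.59% of all promoters and in none of the 8 matched D1 marker promoters. It stood in 1 of 8 for D2/A2a markers, that of Gpr6, in 1 of 8 for MHC genes, that of RT1-Ba, and in 0 of 19 for interferon-stimulated genes. In Gpr6 it lay 93 to 86 bases before the start, shown here with the element in capitals because Gpr6 is among the genes that part the neuron types most clearly:
Gpr6, chr20:46075317-46075364, minus strand: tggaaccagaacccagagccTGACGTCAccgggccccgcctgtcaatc

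Whether the difference between neuron types itself changed between day 1 and day 40 was tested as an interaction. Against cocaine animals of day 1, 10 genes passed (0.0642% of those tested), 3 with a shift toward D1 (0.0193%) and 7 toward A2a libraries (0.0449%), and 3 of them had a name. Zc3hav1, an antiviral zinc finger protein, read 2.85, 3.23 and 4.99 CPM in D1 and 8.56, 12.1 and 28.3 CPM in A2a libraries of day 40, a difference of -2.03 where day 1 had 0.18, a shift of -2.21 ± 0.42 (edgeR adjusted p = 0.0163). Xaf1, an interferon-induced apoptosis factor, shifted by -1.32 ± 0.26 (edgeR adjusted p = 0.0163), although its difference on day 40 alone did not pass (-0.35 ± 0.18, edgeR adjusted p = 0.178) and that of day 1 was 0.97. Wdtc1, a ubiquitin ligase adaptor, went from 0.15 on day 1 to -0.19 on day 40 and shifted by -0.34 ± 0.07 (edgeR adjusted p = 0.0409). None of these 10 calls remained in a fit on the 32 cocaine libraries alone, which called 0 genes by edgeR (1502 at an unadjusted p under 0.05). On all libraries limma-voom called 2 genes and DESeq2 121.

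Measured against the mean of both day 1 differences, 81 genes passed (0.52% of those tested), 67 of them toward A2a (0.43%) and 14 toward D1 libraries (0.0899%). They held 10 of the 26 interferon-stimulated genes and 0 of the 19 marker genes of either neuron type. Fgf1 and Stac2, an adaptor of calcium channels, were among the 14 that moved toward D1 libraries. Stac2 read 14.2, 18.6 and 22.5 against 5.91, 8.44 and 10.5 CPM on day 40 (1.15 ± 0.12, edgeR adjusted p = 5.79e-10), where the differences of day 1 were 0.38 after cocaine and 0.37 after saline. Rpl10a, a ribosomal protein gene that many TRAP tags are built on, differed by 0.08 ± 0.14 on day 40 (edgeR adjusted p = 0.762) and by 0.69 and 1.03 on day 1 after cocaine and saline. Its shift against the mean of day 1 was -0.78 ± 0.17 (edgeR adjusted p = 0.0209), and on day 40 the groups overlapped, at 468 to 639 against 407 to 587 CPM.

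Genes that respond to neuronal activity were lower in D1 libraries in 6 of 20 tested (30%, where all genes tested gave 10.3%) and higher in none. Egr2, an immediate early transcription factor, read 2.33, 6.38 and 16.3 CPM in D1 and 10.1, 13.8 and 27.6 CPM in A2a libraries (-1.20 ± 0.30, edgeR adjusted p = 0.00297). Nr4a3, an orphan nuclear receptor, differed by -0.90 ± 0.25, Egr1 by -0.55 ± 0.12 and Homer1, a postsynaptic scaffold, by -0.58 ± 0.15 (edgeR adjusted p between 0.00079 and 0.00698). Fos differed by -0.55 ± 0.31 and Arc by -0.60 ± 0.26, and neither passed (edgeR adjusted p between 0.0951 and 0.225). Groups overlapped in all 6 genes named here. The list median was -0.38 on day 40, -0.35 on cocaine day 1 and 0.0081 on saline day 1.

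Clock genes were lower in D1 libraries in 8 of 17 tested (47.1%, where all genes tested gave 10.3%) and higher in none, with a median of -0.23. Ciart, a repressor of the clock, read 7.2, 14.7 and 17.9 against 16.7, 21.4 and 29.9 CPM (-0.64 ± 0.14, edgeR adjusted p = 0.000976), and Dbp, a clock output factor, 326, 417 and 476 against 467, 529.9 and 663 CPM (-0.38 ± 0.07, edgeR adjusted p = 0.000173). Per1, a core clock repressor, differed by -0.43 ± 0.10, Tef by -0.33 ± 0.06 and Cry2 by -0.23 ± 0.05 (edgeR adjusted p between 8.26e-05 and 0.00185), and the groups overlapped in all of these. On day 1 the list had a median of -0.11 after cocaine and -0.095 after saline. The hour of death is not given in the sources used here.

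Housekeeping genes differed in small numbers. Among 72 cytosolic ribosomal protein genes 3 were higher (4.17%) and none lower. Among 67 nuclear genes of the respiratory chain 7 were higher (10.4%) and none lower. The medians of these lists were 0.045 and 0.076, and all genes tested gave 10.1% higher and 10.3% lower. Without A2a replicate 8 the respiratory chain count was 12. Sdhc, a subunit of succinate dehydrogenase, differed by 0.20 ± 0.05 and Pgam1, a glycolytic mutase, by 0.24 ± 0.04 (edgeR adjusted p between 3.2e-05 and 0.00198). Of 15 dopamine receptor and signalling genes 4 were higher (26.7%) and 6 lower (40%), and 2 and 5 without D1 replicate 7. Among the remaining lists, counts of higher and lower genes were 3 and 1 of 17 glycolysis genes (17.6% and 5.88%), 1 and 1 of 21 heat shock and chaperone genes (4.76% each) and 0 and 5 of 15 glucocorticoid-responsive genes (33.3% lower). They were 0 and 1 of 10 metabotropic glutamate receptor and Homer genes (10% lower), 1 and 0 of 5 cortical glutamatergic markers (20% higher) and 0 and 1 of 9 endothelial and mural markers (11.1% lower). The cortical marker called was Slc17a6, given above as a gene of subcortical neurons and highest in D1 replicate 7. Without D1 replicate 7 the heat shock list had 0 and 0 and the glucocorticoid list 0 and 3, and without A2a replicate 8 the heat shock list had 2 and 0, the endothelial list 0 and 2 and the metabotropic list 1 and 1.

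**Figure D5:**
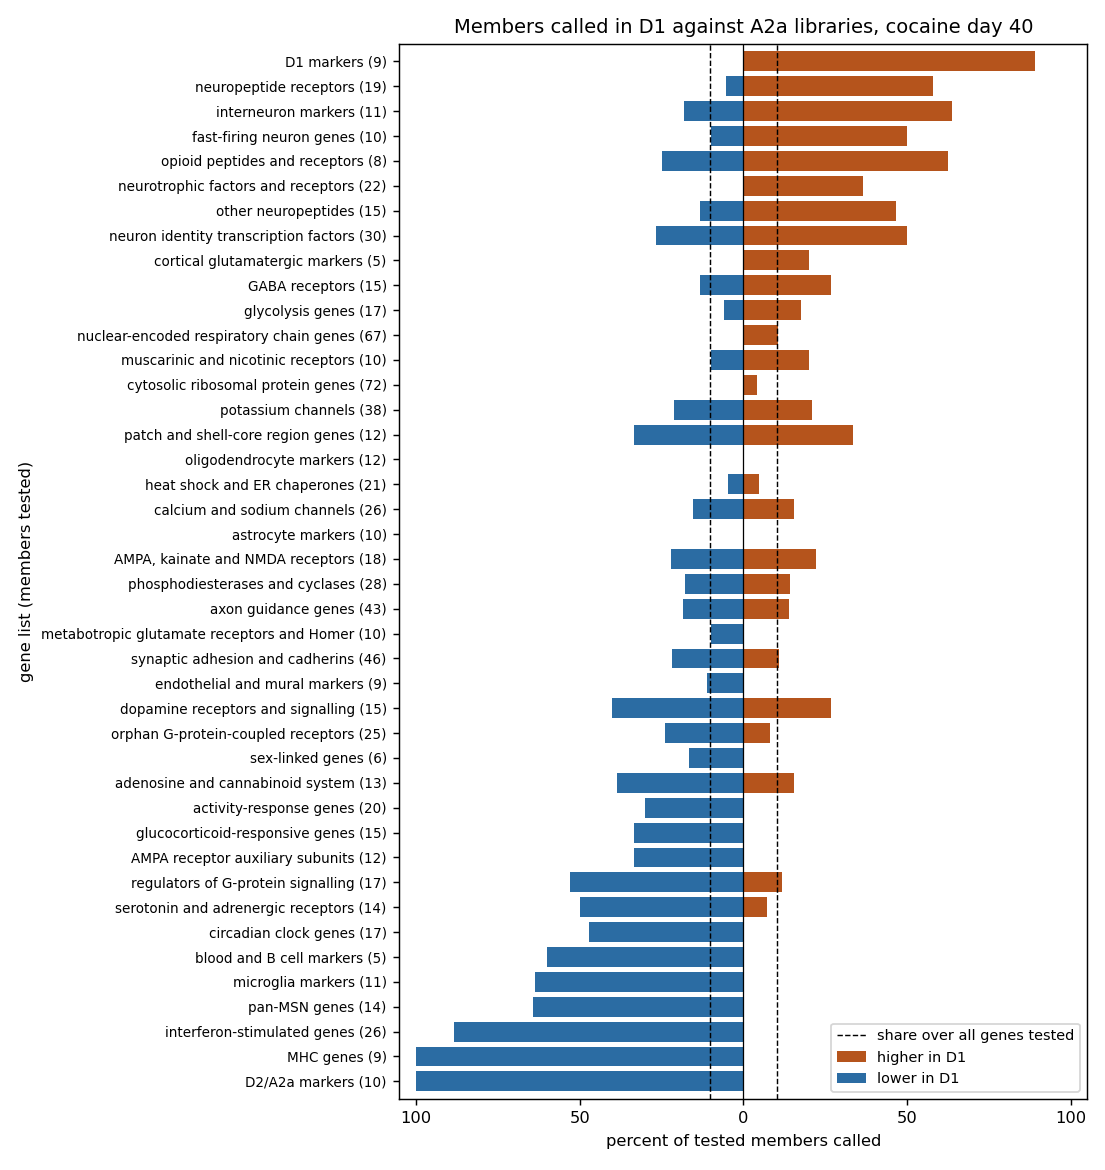
Percent of the tested members of each gene list that passed in D1 against A2a libraries of cocaine day 40, higher in D1 to the right and lower to the left, with dashed lines at the share over all genes tested (10.1% and 10.3%). Lists are ordered by the balance of the shares, from D1 markers with 8 of 9 higher to D2/A2a markers with 10 of 10 lower.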

How the data were processed

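The authors deposited raw gene counts for 48 libraries under 32883 Ensembl identifiers, of which 12500 had no name. STAR, Trimmomatic, SAMtools and bcl2fastq are the tools and Rnor_6.0 the build named by the submitters' processing notes. Their versions, the counter, its annotation and its use of strand were not given in these sources, so a gene cannot be parted from an overlapping or antisense neighbour. From these counts, genes were kept by edgeR 4.0.16 (R 4.3.3) with a minimum count of 10, scaled by TMM and fitted in 1 robust quasi-likelihood model with 6 groups. D1 minus A2a contrasts were tested over 15580 genes with Benjamini-Hochberg adjustment at 0.05. SE is the size of the log2 difference over the square root of F. Replicates are separate brains, per the labels; the least chi-square per gene between libraries of a day 40 group was 15.6. The steps were tested on simulated data.

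Members and the 43 gene lists were chosen with earlier results of these data known. Some markers count again in other lists, such as those of identity factors and of opioid, dopamine and orphan receptor genes. List shares are therefore descriptions. Named genes were all tested markers, the 12 largest and 6 smallest-p called genes in each direction at a mean log2 CPM of at least 3, up to 5 called genes per list, a panel of 13 (Fos, Arc, Bdnf, Gria1, Gria2, Grm5, Grin2b, Cnr1, Oprm1, Chrm1, Rpl10a, Aldh1a1, Rarb) and the 8 smallest-p genes each way in the interaction. Alternatives were DESeq2 1.42.0, limma 3.58.1 voom, other scalings, filters, blocks and left-out libraries; the Y-linked term, the interferon score (mean log2 CPM of the list) and the joint removal of D1 replicate 7 and A2a replicate 8 were chosen after seeing the data. RefSeq promoters of GRCr8 were used for sequences only.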

Additional observations from a re-analysis of the deposited data

Results flagged for a closer look

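Among the genes named above, 288 groups of 8 libraries were searched for a library far from the others by Dixon's gap test, and 35 of these groups held one. Chance trips this test in about 1 of 20 groups if values are normal, which was not tested for CPM. Genes of the same library are not independent, so the counts of flags are descriptions. In 16 of them that library was D1 replicate 7. It stood above the others in Cacna1g (30.7 CPM, next library 18.5), Calb2 (84.2 CPM, next library 42.2), Cntnap4 (18.6 CPM, next library 14.0), Crh (43.4 CPM, next library 7.41), Fgf1 (19.0 CPM, next library 8.74), Gfra1 (32.5 CPM, next library 16.4), Gfra2 (58.3 CPM, next library 23.6), Gpx3 (134 CPM, next library 62.0), Grin2d (16.2 CPM, next library 7.39), Pnoc (34.8 CPM, next library 16.7), Slc17a6 (15.4 CPM, next library 6.3), Sstr1 (14.6 CPM, next library 6.17) and Ube2ql1 (135 CPM, next library 93.8). It stood below them in Adora2a (85.5 CPM, next library 194), Foxp1 (37.4 CPM, next library 57.7) and Gucy1a1 (66.6 CPM, next library 98.9). 

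A2a replicate 1 stood apart in Grik3 (8.47 CPM, next library 4.08), Mx1 (28.7 CPM, next library 14.9) and Zc3hav1 (28.3 CPM, next library 16.0). A2a replicate 3 stood apart in Gfra2 (9.4 CPM, next library 6.38). A2a replicate 8 stood apart in Dbp (662 CPM, next library 553), Lrrtm3 (147 CPM, next library 125) and Nrxn2 (726 CPM, next library 558). D1 replicate 1 stood apart in Grm5 (11.7 CPM, next library 7.11), Htr2c (358 CPM, next library 261), Ptprm (102 CPM, next library 80.8) and Zfp521 (28.1 CPM, next library 20.9). D1 replicate 2 stood apart in Mx1 (2.00 CPM, next library 0.941). D1 replicate 3 stood apart in Pomc (93.5 CPM, next library 4.4) and Sstr4 (6.65 CPM, next library 4.54). D1 replicate 4 stood apart in Cd79a (0.0758 CPM, next library 0.0288). D1 replicate 5 stood apart in Cd79b (0.201 CPM, next library 0.053) and Egr2 (16.3 CPM, next library 8.24). D1 replicate 8 stood apart in Nt5e (7.98 CPM, next library 6.41) and Zc3hav1 (4.99 CPM, next library 3.58).

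In the fit on all libraries, the difference between D1 and A2a libraries itself differed between day 40 and cocaine day 1 in Wdtc1 (shift -0.34, edgeR adjusted p = 0.0409), Xaf1 (shift -1.32, edgeR adjusted p = 0.0163) and Zc3hav1 (shift -2.21, edgeR adjusted p = 0.0163). None of these calls remained in the fit on the 32 cocaine libraries alone, which called 0 genes by edgeR.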

How the results depend on the processing

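The count of genes that differed between D1 and A2a libraries of day 40 was 3171 and stayed within 1.5 times of that, in total and in each direction, under each alternative run, from 2443 with the interferon score as a covariate to 3472 without D1 replicate 1. It was 2544 in a fit on the 16 libraries alone, 3407 by DESeq2, 3310 by limma-voom, 3259 without TMM scaling and 2535 without D1 replicate 7. With the replicate number as a block it was 3258; numbers did not pair the libraries, since 0 of 8 same-numbered pairs correlated above 0.1 (-0.0325 to 0.0828) and 0 libraries correlated best with their own number. Of 181 named genes called, 17 lost the call without at least 1 library and 43 under at least 1 other setting. With the interferon score, which itself differs between the groups, Tap1, C1qb, C1qc and Csf1r changed sign (to 0.12, 0.0875, 0.0780 and 0.0673) and did not pass; the cause was not tested.

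The difference between day 40 and cocaine day 1 depended on the setting, and the cause was not tested. From 10 genes (3 toward D1, 7 toward A2a) it went to 0 genes (0 toward D1, 0 toward A2a) on the 32 cocaine libraries, 121 genes (24 toward D1, 97 toward A2a) by DESeq2, 2 genes (0 toward D1, 2 toward A2a) by limma-voom, 17 genes (3 toward D1, 14 toward A2a) without TMM and 0 genes (0 toward D1, 0 toward A2a) with the interferon score. Against saline day 1 it was 24 genes (4 toward D1, 20 toward A2a), and against the mean of both 81 genes (14 toward D1, 67 toward A2a). It was 12 genes (5 toward D1, 7 toward A2a) without the filter, 8 genes (1 toward D1, 7 toward A2a) with the replicate block and 8 genes (1 toward D1, 7 toward A2a) with a term for Y-linked reads. Leaving out 1 library gave 6 to 74 genes, 1 to 13 toward D1 and 5 to 61 toward A2a. The counts were 74, 70 and 68 without D1 day 1 replicates 2 and 1 and A2a day 1 replicate 4, and 39 and 29 without A2a replicate 8 of day 40 and of day 1; it was 6 without D1 replicate 4 or A2a replicate 1 or 6 of day 40, or without D1 replicate 6, 7 or 8 of day 1. At an unadjusted p under 0.05 there were 1632 genes.

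A gene at 1 CPM rested on about 24 counts or more in each day 40 library, and genes well below that, such as Bdnf, Oprm1 and Cd79b, are too thinly read to show small differences. Animal set, rat line and neuron type cannot be told apart on day 40.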

Other observations

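Tead3, a transcription factor of the Hippo pathway, was chosen after its values were seen because the groups did not overlap and the difference was larger on day 40 than on day 1. Its mean level was 2.19 ± 0.452 CPM across D1 and 13.3 ± 3.88 CPM in A2a libraries of day 40 (SD, n = 8 each), a log2 difference of -2.60 ± 0.29, where the differences of day 1 were -1.17 after cocaine and -0.92 after saline. The shift of Tead3 against the mean of day 1 was -1.56 ± 0.34 (edgeR adjusted p = 0.019). Against cocaine day 1 alone it was -1.43 ± 0.39 and did not pass (edgeR adjusted p = 0.105).

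Among genes of medium spiny neuron compartments, which mark patches, matrix, shell or core, 4 of 12 tested were higher and 4 lower in D1 libraries. That is 33.3% each, where all genes tested gave 10.1% and 10.3%. Dlk1, a membrane-bound Notch ligand, read 40.1, 54.3 and 72.0 CPM in D1 and 14.8, 19.0 and 23.1 CPM in A2a libraries (1.49 ± 0.17, edgeR adjusted p = 4.24e-09), and the groups did not overlap. Lypd1, a modulator of nicotinic receptors, was higher by 0.38 ± 0.06, while Calb1, the calbindin gene of the matrix, differed by -0.64 ± 0.14 (edgeR adjusted p between 9.94e-06 and 0.000545).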
